A study of Mus musculus with 10 samples.

Results

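Small nucleolar RNA (snoRNA) host genes are transcribed into long RNAs whose introns carry snoRNAs. A list of 8 such genes, Gas5, Snhg1, Snhg3, Snhg5, Snhg6, Snhg8, Snhg12 and Zfas1, was matched by symbol to the Ensembl identifiers of the count files, and 6 of the 8 were found among 43629 genes. Snhg1 and Snhg8 were not analysed here. Of the 6 genes found, 5 passed the filter on low counts, and Snhg3 did not.

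The RNA came from skeletal muscle of male C57BL/6 mice aged 6 weeks that had been on a high-fat diet (HFD) for 2 weeks, in every group. The tested muscle was labelled IMP2 null (KO) and was set against wild type (WT). IMP2 is the RNA-binding protein encoded by Igf2bp2, and the design text of the series describes a muscle-specific deletion, while the sources used here do not give the region removed or the line that drives it. RNA recovered by immunoprecipitation (IP) with a home-made IMP2 antibody was sequenced in 2 KO and 2 WT libraries, and total RNA in 3 KO and 3 WT libraries. Separate animals are not named in any label, and the p-values therefore rest on library-to-library spread alone, which may be technical.

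When a host transcript is spliced, the excised introns are trimmed to snoRNAs, which assemble with proteins into particles in the nucleolus. Box C/D snoRNAs guide ribose methylation and box H/ACA snoRNAs guide pseudouridylation of ribosomal RNA. The spliced host RNA reaches the cytoplasm, where many host RNAs carry short open reading frames and are degraded by nonsense-mediated decay. Many hosts also start with a run of pyrimidines, the terminal oligopyrimidine (TOP) element shared with mRNAs of ribosomal proteins.

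Sequences around the annotated starts are shown so that the pyrimidine runs, which differ among these hosts in length and in distance from the start, can be read directly. RefSeq (GRCm38.p6) gave starts for 7 of the 8 genes, with 2 for Gas5. Each window runs from 45 bases before the start through 35 bases from it, 5′ to 3′. Capitals mark the longest run of C or T within 20 bases of the start on either side and, where present, the letters TATA lying between 40 and 20 bases before it, read on the gene's strand alone.
Gas5, second start, chr1:161035121-161035200, plus strand: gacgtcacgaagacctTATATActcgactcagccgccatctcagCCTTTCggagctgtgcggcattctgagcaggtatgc
Snhg1, chr19:8723442-8723521, plus strand: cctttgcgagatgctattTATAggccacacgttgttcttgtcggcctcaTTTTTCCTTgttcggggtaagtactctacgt
Snhg5, chr9:88522863-88522942, minus strand: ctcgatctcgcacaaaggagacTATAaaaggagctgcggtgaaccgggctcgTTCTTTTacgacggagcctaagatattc
Snhg8, chr3:123508302-123508381, minus strand: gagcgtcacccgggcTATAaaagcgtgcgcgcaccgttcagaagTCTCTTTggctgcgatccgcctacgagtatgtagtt
Snhg12, chr4:132308633-132308712, plus strand: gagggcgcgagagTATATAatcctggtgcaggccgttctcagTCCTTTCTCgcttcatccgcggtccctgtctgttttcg
Zfas1, chr2:167062889-167062968, plus strand: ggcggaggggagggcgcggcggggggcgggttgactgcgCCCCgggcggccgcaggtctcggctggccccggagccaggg

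The longest pyrimidine run was 9 bases in Snhg1 and Snhg12, a length reached by 10.7% of 32851 mouse promoters. It was 7 bases in Snhg5 and Snhg8, reached by 24.3% of promoters, and 6 at the second start of Gas5, reached by 37.5%. Snhg3 had a run of 5, the median over all promoters, and Zfas1 and the first start of Gas5 had runs of 4 and 3. TATA lay in the stated window at 1 start of each of 5 genes, Gas5, Snhg1, Snhg5, Snhg8 and Snhg12, and in 5.49% of all promoters. The search for TATA was chosen after the sequences had been read, and a match describes letters in a window, not a site in use.

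The annotation of GENCODE M21 placed 30 snoRNA genes counted in the files within the 8 host genes, on the same strand. Gas5 held 9 of them, Snhg1 8, Snhg12 4, Zfas1 3, Snhg3 and Snhg5 2 each, and Snhg6 and Snhg8 1 each. Of the 30, 19 had both a C box (TGATGA in the first 20 bases) and a D box (CTGA in the last 15 bases). Of the others, 5 had the letters ACA in the last 8 bases, and 6 had neither arrangement. A few from GENCODE M21 are shown as the products these host RNAs carry, with capitals on the C and D boxes or on ACA.
Snord47 in Gas5, chr1:161038082-161038158, plus strand: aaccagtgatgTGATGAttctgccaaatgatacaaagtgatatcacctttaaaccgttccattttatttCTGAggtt
Snord50a in Snhg5, chr9:88521529-88521600, minus strand: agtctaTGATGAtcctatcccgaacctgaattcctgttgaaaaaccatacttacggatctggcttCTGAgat
Snord50b in Snhg5, chr9:88521797-88521868, minus strand: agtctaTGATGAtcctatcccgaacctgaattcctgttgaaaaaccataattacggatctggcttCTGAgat
Snord87 in Snhg6, chr1:9942463-9942549, minus strand: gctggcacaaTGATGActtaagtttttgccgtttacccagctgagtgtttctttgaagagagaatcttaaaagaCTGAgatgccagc
Snord12 in Zfas1, chr2:167065276-167065365, plus strand: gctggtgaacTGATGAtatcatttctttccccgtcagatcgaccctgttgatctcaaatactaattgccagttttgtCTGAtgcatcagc
Snora24 in Snhg8, chr3:123507937-123508066, minus strand: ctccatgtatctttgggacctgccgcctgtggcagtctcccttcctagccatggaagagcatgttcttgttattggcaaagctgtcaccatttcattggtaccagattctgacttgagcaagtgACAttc

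The snoRNAs themselves were almost uncounted in these libraries. Of the 30, 27 had 0 counts in all 10 libraries, which allows up to 0.743 to 3.27 CPM (a gene's share of a library's counts, scaled to a common total) in single IP libraries and 0.203 to 0.310 CPM in single total RNA libraries, for counting error only. The other 3 were Snora24 of Snhg8 with 15 counts over all libraries, Snora16a of Snhg12 with 14 and Snord87 of Snhg6 with 4. No snoRNA of a host gene had more than 5 counts in a library. Most of these snoRNA genes lie inside host exons in GENCODE M21, where reads can be counted as ambiguous. The CPM limits above therefore do not bound the amount of snoRNA. The 72 bases of Snord50a and Snord50b differ at 1 position, C50A, counted from the 5′ end of Snord50a, so reads of both copies may map to several places. All 1525 snoRNA genes together took 0.00245% to 0.00813% of the gene counts of a library. The values below are therefore those of the host transcripts.

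**Figure D1:**
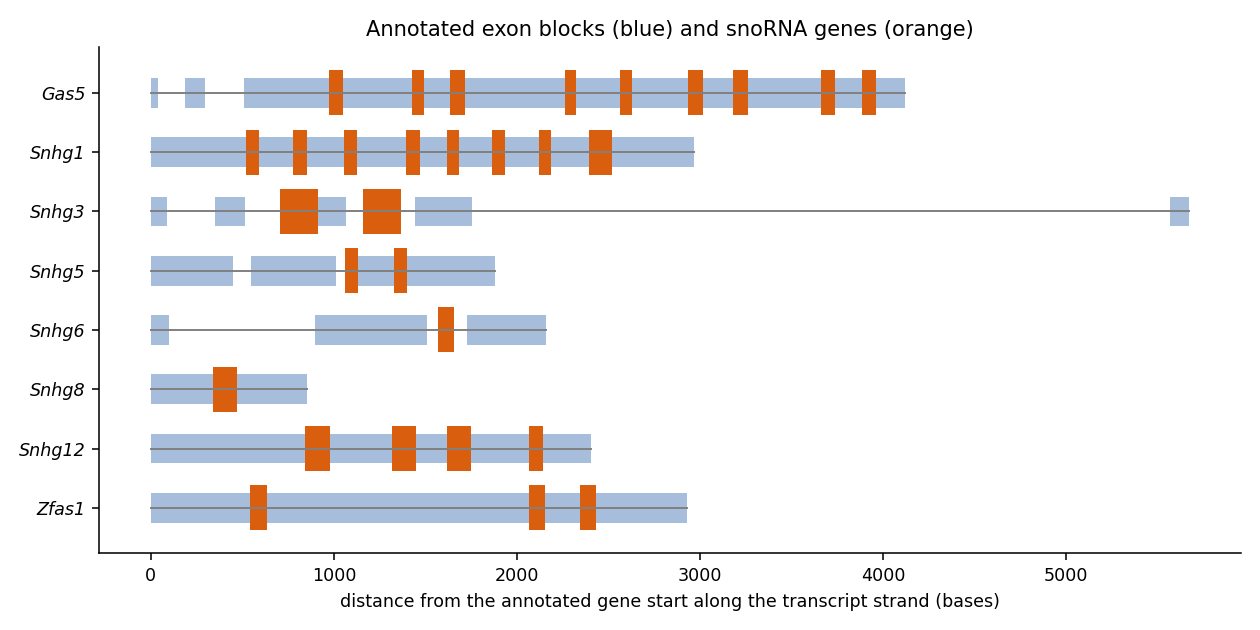
Exon blocks (blue) and snoRNA genes (orange) of the 8 host genes in GENCODE M21, drawn to scale by distance in bases from the annotated start along the transcript strand. The 10 snoRNA genes drawn in Gas5, of which 2 overlap and 9 are in the count files, are strung along its 4118 bases, while Snhg6 and Snhg8 hold 1 each.

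Most annotated snoRNA genes lie inside blocks that the annotation also counts as host exon, through transcripts with retained introns, as the map of exons and snoRNA genes shows. Between 8.32% and 19.57% of the exonic bases of the 5 tested host genes were shared with another gene, and reads there can be counted as ambiguous. Snhg3, host of Snora73a and Snora73b, shared 86.31% of its 986 exonic bases, with Rcc1 on the same strand and Gm17300 on the opposite strand among the sharers. Snhg6 overlaps Mcmdc2 and Zfas1 overlaps Znfx1 on the opposite strand, by 127 and 82 exonic bases, and the sources used here do not give the strand setting of the counting. On the same strand, Zfas1 also shares 189 exonic bases with Gm27494.

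Gene counts summed to 917462 and 4037480 in the KO IP libraries, 2159115 and 2547124 in the WT IP libraries, 9691580 to 10739792 in KO total RNA and 12299030 to 14809788 in WT total RNA. Counts were scaled to CPM with trimmed mean of M values (TMM) factors. Igf2bp2, the targeted gene, had 21, 19 and 21 counts in KO total RNA and 35, 37 and 48 counts in WT total RNA, with a log2 difference of -0.36 ± 0.28 (SE, adjusted p = 0.897, edgeR). Since the deleted region was not given, this count does not check the genotype labels. All 9 skeletal muscle markers were counted in every library. In KO their sum was lower in IP, at 77600 to 101000 CPM, against 211000 to 278000 CPM in total RNA. In WT the ranges overlapped, at 101000 to 124000 CPM in IP and 113000 to 204000 CPM in total RNA.

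Single libraries stood apart. WT total RNA replicate 3 had the lowest muscle marker sum of all total RNA libraries (113000 CPM), the lowest ribosomal protein sum (2460 CPM) and the highest sum of 8 nuclear-retained RNAs (6600 CPM, against 1880 to 3000 CPM in KO total RNA and 2120 and 2750 CPM in the other WT libraries). Neat1 alone held 4580 CPM of that 6600 CPM. KO total RNA replicate 1 held 2360 CPM of 6 pancreatic islet markers, which summed to 2.08 and 2.23 CPM in the other KO and 1.00 to 1.85 CPM in the WT total RNA libraries, with 2 to 4 of the 6 at 0. Islet markers also summed to 140 and 367 CPM in KO IP and 42.1 and 337 CPM in WT IP. Their part in the results below was not tested beyond the values given without these libraries. Nor can fewer cells of a type and less RNA per cell be told apart in bulk muscle.

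Gas5 was the most abundant host transcript by counts, and its RNA hosts the largest set of box C/D snoRNAs on the list. It accumulates in growth-arrested cells, and in human cells its spliced RNA binds the glucocorticoid receptor. The gene (chr1:161034422-161038539, plus strand) had 139 and 142 CPM in KO IP, 162 and 164 CPM in WT IP, 39.0, 42.4 and 41.7 CPM in KO total RNA, and 37.0, 41.4 and 68.5 CPM in WT total RNA. Every IP library exceeded every total RNA library, and WT total RNA replicate 3 was the high one among the WT total RNA libraries.

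Zfas1 (chr2:167062934-167065862, plus strand) is the antisense neighbour of the Znfx1 promoter and hosts Snord12 and its relatives. It had 36.5 and 35.7 CPM in KO IP, 50.0 and 73.2 CPM in WT IP, 10.5, 10.7 and 12.3 CPM in KO total RNA, and 12.5, 13.8 and 20.2 CPM in WT total RNA. All KO libraries lay below all WT libraries of the same kind, and all IP libraries lay above all total RNA libraries.

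Snhg5 (chr9:88521050-88522929, minus strand), host of Snord50a and Snord50b, had 31.7 and 18.3 CPM in KO IP, 19.3 and 21 CPM in WT IP, 10.3 CPM in each of the 3 KO total RNA libraries, and 10.8, 11.9 and 16.2 CPM in WT total RNA. The KO total RNA libraries lay together and below those of WT, while the KO IP libraries lay on either side of those of WT.

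Snhg6 (chr1:9941959-9944118, minus strand), host of Snord87, had 33.6 and 17.0 CPM in KO IP, 23.1 and 29.6 CPM in WT IP, 12.9, 9.39 and 15.5 CPM in KO total RNA, and 11.6, 9.57 and 16.9 CPM in WT total RNA. The genotypes overlapped in both kinds of library. Snhg12 (chr4:132308623-132311024, plus strand), host of both box C/D and box H/ACA snoRNAs, had 10.6 and 23.6 CPM in KO IP, 13.5 and 8.57 CPM in WT IP, 5.29, 4.85 and 4.58 CPM in KO total RNA, and 4.73, 5.86 and 8.30 CPM in WT total RNA. The 2 KO IP libraries were far apart and had WT replicate 1 between them. KO IP replicate 1 rested on 11 counts of Snhg12, 33 of Snhg5 and 35 of Snhg6.

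Snhg3 (chr4:132348014-132353686, minus strand) had 0 counts in both KO IP libraries, 1 and 0 counts in WT IP, 2, 1 and 6 in KO total RNA, and 5, 3 and 8 in WT total RNA, and was too low to test.

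**Figure D2:**
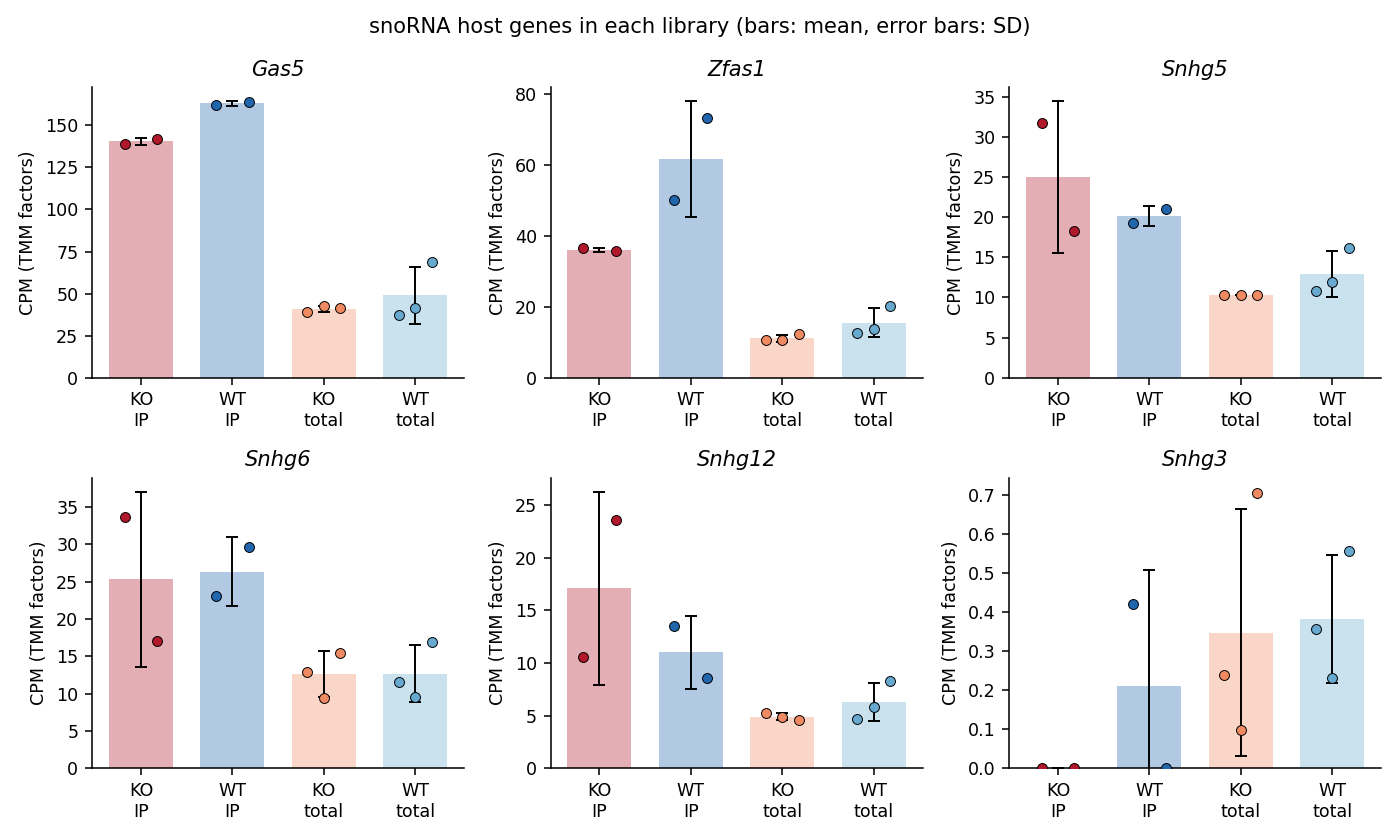
CPM (vertical axes) of the 6 host genes found, with 1 point per library, bars for the mean and error bars for the SD, in KO IP, WT IP, KO total RNA and WT total RNA from left to right. For 5 of the 6 genes every IP library lies above every total RNA library of its genotype, while Snhg3 lies at or below 0.705 CPM throughout.

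Levels of different genes were compared per kilobase (kb) of annotated exon, a length that retained-intron transcripts enlarge. In KO total RNA the order in CPM per kb was Snhg6 (11.0 ± 2.67), Gas5 (10.9 ± 0.473), Snhg5 (5.96 ± 0.0162), Zfas1 (3.81 ± 0.350), Snhg12 (2.04 ± 0.148) and Snhg3 (0.353 ± 0.321; SD, n = 3). In WT total RNA it was Gas5 (13.0 ± 4.53), Snhg6 (11.1 ± 3.30), Snhg5 (7.49 ± 1.65), Zfas1 (5.29 ± 1.40), Snhg12 (2.62 ± 0.761) and Snhg3 (0.388 ± 0.167; SD, n = 3). Gas5 and Snhg6 overlapped in both genotypes, and in WT neighbouring genes overlapped down to Zfas1.

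In IP the order of the means changed in KO for Gas5 and Snhg6 alone. In WT it changed for Zfas1 and Snhg5 alone, with Snhg5 at 11.7 ± 0.691 CPM per kb in WT IP. Each of these pairs had overlapped in total RNA. Gas5 led by its per-kb level with 37.5 ± 0.564 CPM per kb in KO IP and 43.4 ± 0.466 in WT IP (SD, n = 2 each), above every other member's libraries. Snhg6 had 22.1 ± 10.3 CPM per kb in KO IP and 23.0 ± 4.0 in WT IP, and Zfas1 had 12.3 ± 0.200 in KO IP and 21 ± 5.60 in WT IP. Snhg6 overlapped Snhg5 (14.4 ± 5.50) in KO IP and Zfas1 in WT IP. By per-kb level, Gas5 stood at the 93.2 and 93.6 percentiles of 14331 genes in KO and WT IP and at the 79.6 and 82.7 percentiles in KO and WT total RNA.

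Most host transcripts were higher in the RNA recovered with the antibody than in total RNA, in KO and in WT muscle. The KO muscle is labelled as lacking the antibody's target. A rise in IP over total RNA therefore does not by itself show binding to IMP2. In KO muscle 4 of the 5 tested genes rose in IP over total RNA at an adjusted p under 0.05 (edgeR quasi-likelihood test over all genes), where 17.7% of all 14399 genes tested were called higher. In WT muscle 3 of the 5 rose, where 17.6% were called higher. The median log2 fold change of the 5 was 1.69 in KO and 1.06 in WT, beside 0.03 and -0.05 over all genes tested. Every IP library lay above every total RNA library of its genotype for all 5 genes, as for 29.9% of all genes in KO and 27.4% in WT.

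Gas5 rose by a log2 fold change of 1.78 ± 0.24 (SE) in KO (adjusted p = 9.16e-05) and of 1.74 ± 0.23 in WT (adjusted p = 9.27e-05), or 3.43-fold and 3.33-fold. Zfas1 rose by 1.69 ± 0.26 in KO (adjusted p = 0.000244) and 1.99 ± 0.24 in WT (adjusted p = 4.64e-05). These were the 2 host genes called in both genotypes, and leaving out any single library kept their log2 values between 1.65 and 1.80 in KO, and in WT between 1.57 and 2.06 for Gas5 and between 1.61 and 2.23 for Zfas1.

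The other 3 host genes were called in 1 genotype each. Snhg12 rose by 1.92 ± 0.36 in KO (adjusted p = 0.000981) and stood at 0.80 ± 0.37 in WT (adjusted p = 0.104). The KO call of Snhg12 rested on KO IP replicate 2, without which its log2 value was 1.09 (adjusted p = 0.192). Snhg5 rose by 1.19 ± 0.28 in KO (adjusted p = 0.00512) and stood at 0.64 ± 0.27 in WT (adjusted p = 0.0807).

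Snhg6 stood at 0.90 ± 0.35 in KO (adjusted p = 0.0559) and rose by 1.06 ± 0.33 in WT (adjusted p = 0.0211). This WT call was lost without WT IP replicate 2 (0.78, adjusted p = 0.200), WT total RNA replicate 1 (1.00, 0.0503) or replicate 2 (0.89, 0.0558). With the replicate number as a block, all 5 host genes passed in both genotypes, with Snhg6 at 1.10 in KO (adjusted p = 0.0035), and Snhg5 at 0.83 (0.0373) and Snhg12 at 1.04 (0.0487) in WT. Without WT total RNA replicate 3 all 5 passed in WT, with Snhg5 at 0.83 (adjusted p = 0.0319) and Snhg12 at 1.05 (0.0455). Without KO total RNA replicate 1, which held the islet transcripts, and WT total RNA replicate 2 together (a pair chosen from earlier results of these data, not the replicate 3 described above), 4 of 5 passed in KO and 2 of 5 in WT.

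**Figure D3:**
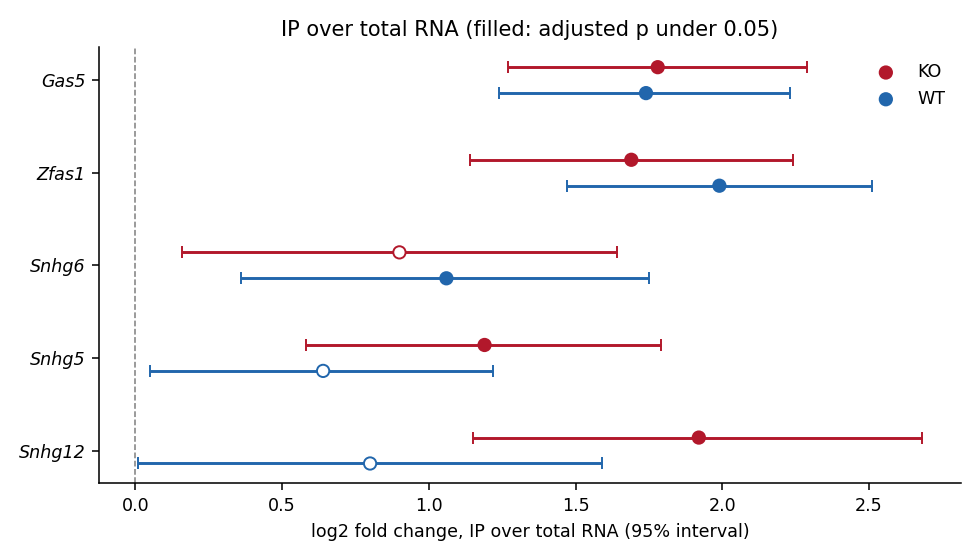
Log2 fold change of IP over total RNA (horizontal axis) for the 5 tested host genes in KO (red, upper) and WT (blue, lower), with 95% intervals and filled points for adjusted p under 0.05. All points lie right of 0, from 0.90 to 1.92 in KO and from 0.64 to 1.99 in WT.

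Markers of other cell types also differed between IP and total RNA. Of 5 Schwann cell markers 3 rose and 0 fell in each genotype, with median log2 fold changes of 1.67 in KO and 1.45 in WT, and of 5 fibroblast markers 3 rose and 0 fell in each, with medians of 0.90 and 0.76. Of 5 erythroid markers 4 rose and 1 fell in KO and 1 rose in WT, with medians of 2.50 and 1.32. Schwann cell markers summed to 447 to 449 CPM in KO IP and 257 to 392 CPM in WT IP, against 73.2 to 208 CPM in KO and 89.6 to 149 CPM in WT total RNA. Erythroid markers summed to 483 to 778 CPM in KO IP and 156 to 310 CPM in WT IP, against 47.7 to 121 CPM in KO and 25.1 to 159 CPM in WT total RNA, with 1 of the 5 at 0 in a KO IP library. Of 7 adipocyte, 6 macrophage, 5 endothelial and 6 islet markers, 2, 0, 1 and 0 rose in KO and 0, 0, 0 and 2 in WT. In these lists 1 adipocyte marker fell in KO and 1 endothelial marker fell in WT. The islet values in KO include KO total RNA replicate 1, which held 2360 CPM of islet markers. The part of these cells in the values of the host genes was not tested.

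Exon length moved with IP over total RNA across all genes. With genes ranked by exon length into 5 equal bins, the bin of the shortest had a median log2 fold change of 0.31 in KO and 0.44 in WT, against -0.29 and -0.44 in the bin of the longest, and 23.1% and 27.9% of the shortest were called higher. The tested host genes had 1146 to 3760 exonic bases, which fall in the shortest 3 bins, and the part of length in their values was not tested. With library size as the only scaling the all-gene median shifted by 0.43 in KO and 0.05 in WT, and the host genes then stood at 1.36 to 2.34 in KO and 0.67 to 2.01 in WT.

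No host gene passed the test of the genotype difference in IP over total RNA. It gave 0 of 5 calls for the KO minus WT difference in IP over total RNA, where 0.00694% of all genes, 1 of 14399, was called and 11.8% had an unadjusted p under 0.05. Snhg12 had an unadjusted p of 0.0476, with a difference of 1.12 ± 0.52 (SE, 95% interval 0.01 to 2.23, adjusted p = 0.419). Gas5 differed by 0.04 ± 0.34 (-0.67 to 0.76), Snhg5 by 0.55 ± 0.40 (-0.30 to 1.39), Snhg6 by -0.16 ± 0.48 (-1.18 to 0.87) and Zfas1 by -0.30 ± 0.36 (-1.07 to 0.47). These 95% intervals hold differences that the data do not exclude, and they are not limits of detection. DESeq2 and limma-voom also called 0 of the 5. The 1 gene called was Prps1l3 (-5.28 ± 0.71, adjusted p = 0.0415), named after its value was seen.

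Between the IP libraries themselves, none of the 5 host genes passed for KO against WT, with 0% of 10730 genes called by edgeR and 10.5% at an unadjusted p under 0.05. Of the host genes only Zfas1 had such a p, at 0.0147, with a log2 difference of -0.77 ± 0.28 (95% interval -1.36 to -0.17, adjusted p = 0.336). It averaged 36.1 ± 0.585 CPM in KO IP and 61.6 ± 16.4 CPM in WT IP (SD, n = 2 each). Gas5 averaged 141 ± 2.12 CPM in KO IP and 163 ± 1.75 CPM in WT IP, a log2 difference of -0.20 ± 0.22. Both KO libraries lay below both WT libraries for Gas5 and Zfas1, as for 20.6% of all genes.

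Snhg12 differed by 0.74 ± 0.47 and Snhg5 by 0.24 ± 0.37 in IP, and Snhg6 by -0.16 ± 0.38, with overlapping libraries in each. The values of Snhg5, Snhg6 and Snhg12 changed sign without single IP libraries, while those of Gas5 (-0.21 to -0.20) and Zfas1 (-1.01 to -0.47) did not. DESeq2 and limma-voom called 0 of the 5 here, although DESeq2 gave an adjusted p for Gas5 alone. Sums of some other lists lay apart by genotype in IP. Fibroblast markers summed to 5890 to 6350 CPM in KO IP and 2730 to 3720 CPM in WT IP. Erythroid markers summed to 483 to 778 CPM in KO IP and 156 to 310 CPM in WT IP. Schwann cell markers summed to 447 to 449 CPM in KO IP and 257 to 392 CPM in WT IP. Endothelial markers summed to 628 to 985 CPM in KO IP and 514 to 529 CPM in WT IP. Adipocyte sums overlapped (451 to 593 CPM in KO IP, 480 to 760 CPM in WT IP). Macrophage sums (262 to 275 CPM in KO IP, 134 to 437 CPM in WT IP) and islet sums also overlapped. Muscle sums of the genotypes met at 101000 CPM. Nuclear-retained RNAs summed to 4560 and 4580 CPM in KO IP and 1800 and 1950 CPM in WT IP. Most of that sum was Neat1, with 3830 and 3310 CPM in KO IP and 1300 and 1400 CPM in WT IP. Ribosomal proteins summed to 8690 and 9580 CPM in KO IP and 11900 and 13100 CPM in WT IP. The part of these transcripts in the values of the host genes was not tested.

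In total RNA none of the 5 host genes passed for KO against WT, where 0% of 13169 genes were called by edgeR and 4.32% had an unadjusted p under 0.05. DESeq2 and limma-voom called none of the 5 either, and none had an unadjusted p under 0.05 in edgeR. All 5 log2 differences were below 0, with a median of -0.34 beside -0.01 over all genes. Zfas1 averaged 11.2 ± 1.03 CPM in KO and 15.5 ± 4.09 CPM in WT (SD, n = 3 each), a difference of -0.48 ± 0.22 (95% interval -0.98 to 0.01, adjusted p = 0.897).

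Snhg5 averaged 10.3 ± 0.0281 CPM in KO and 13.0 ± 2.85 CPM in WT total RNA, a log2 difference of -0.34 ± 0.20. All KO total RNA libraries lay below all WT libraries for Snhg5 and Zfas1, as for 4.56% of all genes. Gas5 differed by -0.26 ± 0.23, Snhg12 by -0.37 ± 0.26 and Snhg6 by -0.02 ± 0.26, with overlapping libraries.

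WT total RNA replicate 3 was the highest WT library for each of the 5 genes. Without it Gas5 stood at 0.07, Snhg6 at 0.25, Snhg5 at -0.13, Snhg12 at -0.10 and Zfas1 at -0.23 in KO against WT total RNA, none past the threshold. With library size as the only scaling the all-gene median shifted by -0.22 and the 5 host genes stood between -0.74 and -0.29.

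**Figure D4:**
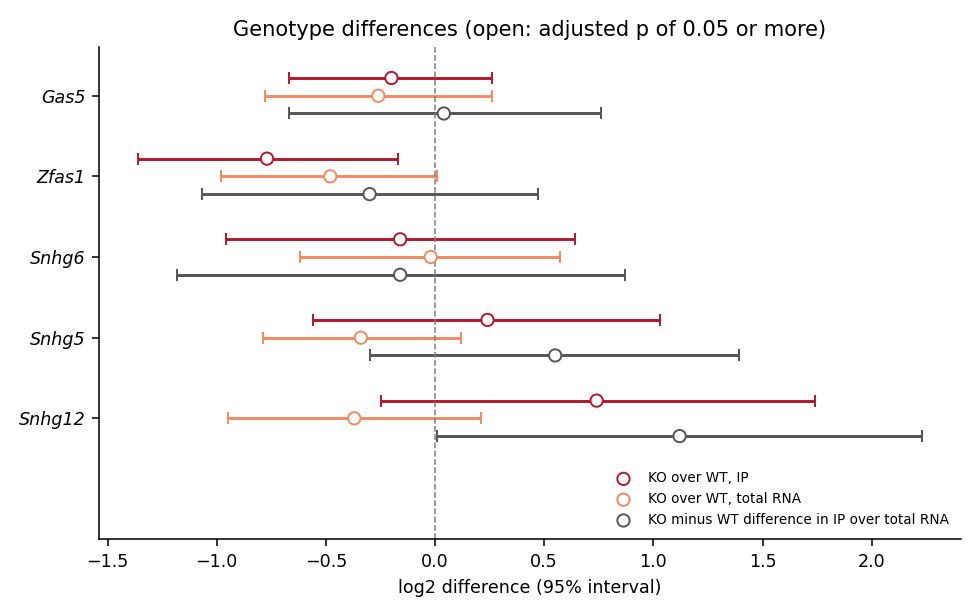
Log2 genotype differences (horizontal axis) of the 5 tested host genes with 95% intervals, for KO over WT in IP (dark red), KO over WT in total RNA (orange) and the KO minus WT difference in IP over total RNA (grey). All points are open, since no adjusted p was under 0.05, and the intervals of Zfas1 in IP (-1.36 to -0.17) and of the difference for Snhg12 (0.01 to 2.23) leave out 0.

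Other noncoding snoRNA hosts were mixed in IP over total RNA. Of 9 tested, 3 rose and 2 fell in KO, and 2 rose and 1 fell in WT, with medians of 1.05 and 0.51. Of all genes tested 18.8% fell in KO and 19.4% in WT. Snhg18 had 27.9 and 28.6 CPM in KO IP and 30.3 and 20.6 CPM in WT IP, against 6.03 to 9.86 CPM in KO and 6.33 to 8.02 CPM in WT total RNA. It rose by 1.94 ± 0.28 in KO (adjusted p = 0.000181) and 1.79 ± 0.28 in WT (adjusted p = 0.000256), and Epb41l4aos rose by 2.61 ± 0.37 and 1.91 ± 0.36. Snhg14, the long imprinted host of the Snord115 and Snord116 clusters, fell in both, with -1.31 in KO (adjusted p = 0.0015) and -2.68 in WT (adjusted p = 1.9e-05). Snhg15 rose in KO alone (1.78 ± 0.65), as Rian fell in KO alone (-1.43 ± 0.52), without a test between genotypes passing for either.

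Over all noncoding hosts in the annotation, without the listed genes, 7 of 22 tested rose and 4 fell in KO, and 4 rose and 2 fell in WT, with medians of 0.75 and 0.36. Over 226 protein-coding hosts, 32 rose and 60 fell in KO, and 42 rose and 61 fell in WT, with medians of -0.09 and -0.16. Among 732 noncoding RNA genes of any kind, 116 rose and 90 fell in KO, and 107 rose and 106 fell in WT. On a hand-written list of 36 protein-coding hosts, many of them ribosomal protein genes, 12 rose and 7 fell in KO, and 17 rose and 7 fell in WT. Of these, Eif4a1, a helicase of translation initiation, rose by 2.02 ± 0.19 in KO and 1.41 ± 0.19 in WT, while its paralogue Eif4a2 fell (-2.71 in KO and -2.78 in WT).

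Transcripts of ribosomal proteins, a large group with pyrimidine starts, were also mostly higher in IP. Of 71 tested, 37 rose and 5 fell in KO, and 52 rose and 3 fell in WT, with medians of 0.97 and 1.68. Rpl39 rose by 2.39 ± 0.27 in KO and 3.00 ± 0.26 in WT, and Rps28 by 2.74 ± 0.33 and 2.81 ± 0.31. The other TOP mRNAs were mixed, with 1 of 16 higher and 4 lower in KO and 6 higher and 2 lower in WT. Vim, which encodes an intermediate filament protein, rose in both (1.43 ± 0.33 in KO and 1.64 ± 0.33 in WT), and Eif4b, a helicase cofactor, fell in both (-1.92 ± 0.25 and -1.28 ± 0.24).

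The mRNAs of the proteins that package snoRNAs were mixed. Of 12 snoRNP proteins, 2 rose and 3 fell in KO and 3 rose and 2 fell in WT. Nop56, a core box C/D protein whose gene is itself a snoRNA host, fell (-2.15 in KO and -2.05 in WT), as did Fbl, the methyltransferase fibrillarin (-2.81 and -2.69). Nhp2, a core H/ACA protein, rose by 1.17 ± 0.28 in KO and 1.59 ± 0.27 in WT, and Naf1, an H/ACA assembly protein, by 1.51 ± 0.32 and 1.14 ± 0.33. Among 10 snoRNP assembly factors 1 rose and 3 fell in KO, and 2 rose and 4 fell in WT, with the chaperone gene Hsp90ab1 (-1.36 ± 0.24 and -0.89 ± 0.24) and the ATPase gene Ruvbl2 (-0.81 ± 0.24 and -1.76 ± 0.26) lower in both.

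Among 18 factors of nonsense-mediated decay, the pathway that degrades many host RNAs, 3 rose and 5 fell in KO and 4 rose and 6 fell in WT. Magoh, a protein of the exon junction complex, fell in both (-0.96 ± 0.33 in KO and -1.47 ± 0.35 in WT). Among 8 nuclear-retained RNAs 2 rose and 2 fell in KO, and 0 rose and 2 fell in WT, with Malat1, a long RNA of nuclear speckles, at -1.58 ± 0.31 in KO and -2.88 ± 0.33 in WT, both past the threshold.

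**Figure D5:**
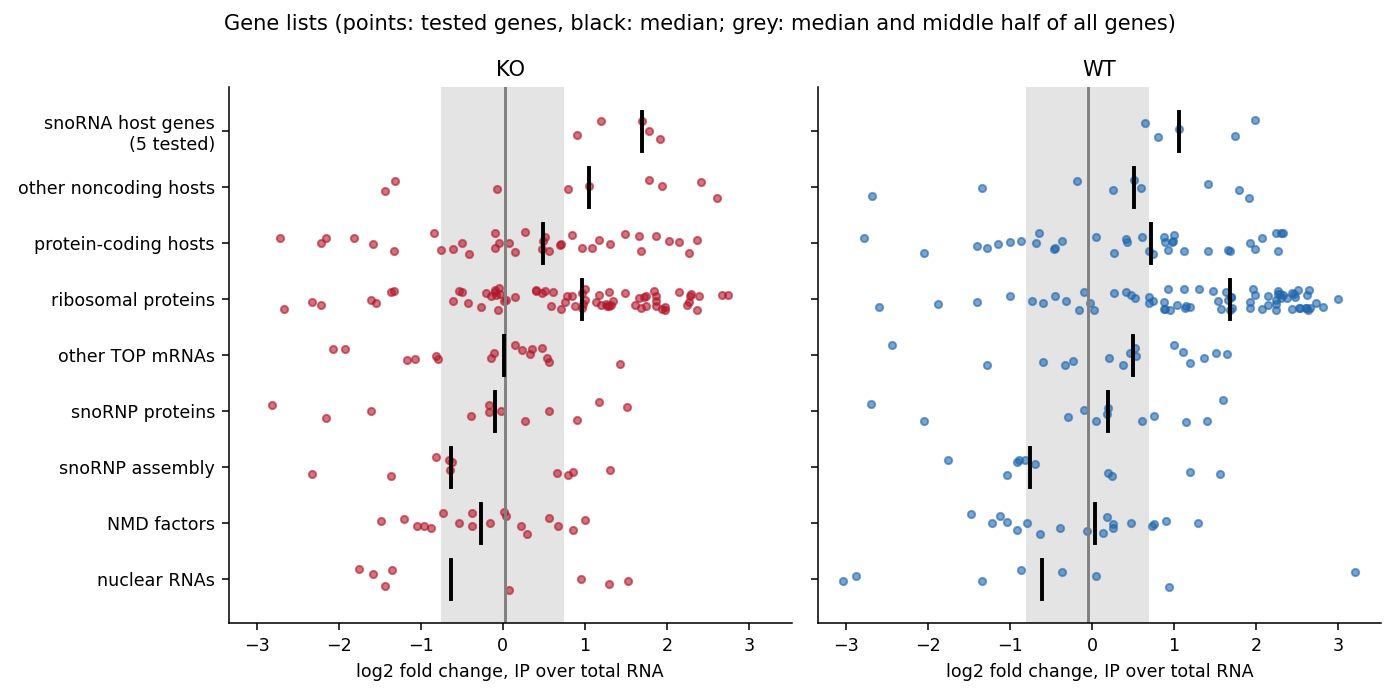
Log2 fold change of IP over total RNA (horizontal axes) in KO (left) and WT (right), with 1 point per tested gene, black bars for each list's median, and a grey line and band for the median and the quartiles of all genes. The host genes have medians of 1.69 in KO and 1.06 in WT, and the ribosomal proteins 0.97 and 1.68, beside 0.03 and -0.05 over all genes.

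The same lists gave no calls for KO against WT. In total RNA 60 of 71 ribosomal protein genes had a log2 difference above 0, with a median of 0.26, whereas all 5 host genes and 6 of the 7 other noncoding hosts tested had one at or below 0, with a median of -0.34 in each list. Of 499 noncoding RNA genes 144 had a difference above 0, against 48% of all genes. WT total RNA replicate 3 stands in all of these comparisons. Among the total RNA libraries it had the lowest ribosomal protein sum and the highest host gene sum (131 CPM). Host gene sums ran from 77.7 to 85.1 CPM in KO total RNA, and the lowest WT total RNA library had 77.0 CPM.

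The genes whose profile over the 10 libraries was most like the mean profile of the 5 host genes were Ypel3, Rnf166, Slc50a1, Thap3 and Dusp13. Likeness was the root mean square difference of centred log2 values among 9742 candidates, which ran from 0.126 to 0.157 for these 5 and from 0.266 to 0.367 for the host genes themselves. Ypel3 had 251 and 220 CPM in KO IP and 237 and 235 CPM in WT IP, against 79.7 to 92.3 CPM in KO total RNA and 98.3 to 156 CPM in WT total RNA. As for the host genes, its highest WT total RNA library was replicate 3, which the choice by profile over the same libraries favours.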

How the data were processed

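Reads were aligned with STAR and counted with HTSeq on mm10 / GRCm38, per the submitters' processing notes (the libraries being TruSeq, per the labels). The sources used here do not name versions, the annotation, the strand setting or filters on reads. The authors deposited 1 whole-number count per Ensembl gene and library, for 43629 genes. The 5 lines of reads given to no gene were left out of library sizes: 26.1% to 43.3% of reads had mapped to several places, 8.54% to 11.2% lay in no gene and 3.30% to 6.03% were ambiguous. A symbol was found for 42462 genes.

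The 2-sided quasi-likelihood test of edgeR (4.0.16, under R 4.3.3) was run on the counts with filterByExpr, TMM factors and Benjamini-Hochberg adjustment over all genes tested, at 0.05. Errors are SE of log2 fold changes or SD of levels. The KO against WT fits held the groups compared, and the IP over total RNA fits held all 10 libraries in 4 groups. The code was tested on simulated data. Alternatives were DESeq2 1.42.0, limma-voom 3.58.1, robust edgeR, other scalings, no filter, a replicate block and fits with libraries left out. Levels per kb used the union of GENCODE M21 exons.

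The listed genes, gene lists and tests were chosen with earlier results of these data known. By rule all 8 host genes were to be named whatever their values (levels could be given for the 6 found and tests for 5), and from each other list up to 4 genes with the smallest p and those past the threshold. Deviations of same-numbered IP and total RNA libraries from their group means correlated weakly, at 0.15 and 0.18 in KO and 0.13 and 0.12 in WT. The values within a genotype are not independent, because so few IP libraries were sequenced. Correlations by number were 0.11, -0.15 and -0.35 between KO and WT total RNA, and -0.06 between KO and WT IP. Since 0.11 lies close to 0.12, these values do not settle whether the number pairs IP and total RNA libraries. The main fits held no replicate block, and the block was run as an alternative only. No replicates agreed within sampling noise (chi-square per degree of freedom 5.9 to 69.8).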

Additional observations from a re-analysis of the deposited data

How the results depend on the processing

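The direction of IP over total RNA for the 5 host genes held under every alternative run in both genotypes, and 0 of 5 passed in the other comparisons under every alternative. In WT, 5 passed with the replicate block, and 2 to 5 with a library left out (2 without WT IP replicate 2, WT total RNA replicate 1 or replicate 2). In KO, 4 to 5 passed, and Snhg6 also passed by library size alone (1.36), without the filter (0.86) and in robust edgeR (0.90, adjusted p = 0.05). The counts over all genes depended most on the setting. For KO against WT total RNA they were 64 without the filter and 5 in DESeq2, against 0 as reported. For KO against WT IP, against 0 as reported, they were 1 by library size alone, 103 without the filter, 57 in DESeq2, 3 in limma-voom, 24 in robust edgeR, 28 with the replicate block, 1 in a fit of all 10 libraries and 13 to 146 with a library left out. For IP over total RNA in KO they were 2148 to 4670 with a library left out, lowest without KO IP replicate 2, against 5251. For the KO minus WT difference, against 1, they were 0 by library size alone, 263 without the filter, 17 in DESeq2, 0 in limma-voom, 147 with the replicate block, 0 without KO total RNA replicate 1 and WT total RNA replicate 2 together, and 0 to 1 with a library left out (1 without WT total RNA replicate 2). The cause was not tested.

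Values that changed sign had no adjusted p under 0.05. With a library left out, the log2 differences ran from -0.43 to 0.07 for Gas5 and -0.19 to 0.25 for Snhg6 in total RNA, from -0.15 to 0.67 for Snhg5, -0.64 to 0.37 for Snhg6 and -0.04 to 1.11 for Snhg12 in IP, and from -0.28 to 0.21 for Gas5 and -0.61 to 0.36 for Snhg6 in the KO minus WT difference. In total RNA, Snhg6 stood at 0.15 without KO replicate 2 and 0.25 without WT replicate 3, and Gas5 at 0.07 without WT replicate 3. In IP, Snhg5 stood at -0.15 without KO replicate 1, Snhg6 at 0.37 without KO replicate 2 and 0.03 without WT replicate 2, and Snhg12 at -0.04 without KO replicate 2. For the KO minus WT difference, Gas5 stood at -0.02 with DESeq2 size factors and in DESeq2, -0.01 in limma-voom, -0.27 with the replicate block and -0.28 without WT total RNA replicate 3. Snhg6 stood at 0.29 by library size alone, 0.03 without KO total RNA replicate 1 and WT total RNA replicate 2 together, 0.36 without KO IP replicate 2, 0.02 without KO total RNA replicate 3 and 0.00 without WT total RNA replicate 2, and Zfas1 at 0.12 by library size alone. Levels by library size alone were 164 CPM for Gas5 in KO IP, 172 in WT IP and 35.6 in KO total RNA, 8.93 for Snhg5, 4.25 for Snhg12 and 9.62 for Zfas1 in KO total RNA, and 42.0 for Zfas1 in KO IP. Each IP group had 2 libraries, and the shallowest held 11 to 35 counts of Snhg5, Snhg6 and Snhg12.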
